A study of Mus musculus with 502 samples.

Results

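Cd4, Cd8a and Cd8b1, the genes of the coreceptors that separate helper from cytotoxic T cells, were examined as 3 of 46603 gene rows in 502 single Cd45+ cells from mouse kidney. The rows were taken by symbol. Their reads were counted in the cells with at least 5 counts on Cd3e, a chain of the T cell receptor complex (called Cd3e cells here), and in the other 395 cells. The Cd3e cells made up 21.3% of all cells, with 53 fresh and 54 preserved ones. In Cd3e cells the Cd4 and Cd8 reads lay almost entirely in different cells, since 44 cells held Cd4 reads without Cd8 reads, 14 held Cd8 reads without Cd4 reads and 1 held both. The remaining 48 Cd3e cells held reads of neither, and whether reads were missed in them was not tested. Cd4 reads were also found in 22 cells with macrophage complement genes, 17.3% of such cells.

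CD4 is a single chain that binds MHC class II on the presenting cell. CD8 is a pair of chains that binds MHC class I, made of an alpha chain from Cd8a alone or of an alpha chain and a beta chain from Cd8b1. T cells in the thymus pass through a stage with both coreceptors and then keep one of them, with Zbtb7b acting on the CD4 side and Runx3 on the CD8 side of the choice. In the mouse, CD4 is also known from some macrophages, plasmacytoid dendritic cells and lymphoid tissue inducer cells, and CD8 alpha from type 1 dendritic cells.

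All 3 genes lie on chromosome 6 of GRCm38. In the GENCODE annotation, Cd8b1 (ENSMUSG00000053044) spans chr6:71322788-71337494 and Cd8a (ENSMUSG00000053977) spans chr6:71373427-71379173, both on the plus strand with 35932 bases between them. Cd4 (ENSMUSG00000023274) spans chr6:124864692-124888221 on the minus strand. No annotated gene overlapped any of them, so the counting without strand does not mix them with a partner. The sequences below are the last 24 codons before the stop codon, shown because the cytoplasmic ends are where CD4 and CD8 alpha hold the kinase Lck through a pair of cysteines separated by 1 residue. Capitals mark the codons of that cysteine pair.
Cd4: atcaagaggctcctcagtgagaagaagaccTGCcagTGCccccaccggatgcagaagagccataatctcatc
Cd8a: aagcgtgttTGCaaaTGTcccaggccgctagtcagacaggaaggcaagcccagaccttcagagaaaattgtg
Cd8b1: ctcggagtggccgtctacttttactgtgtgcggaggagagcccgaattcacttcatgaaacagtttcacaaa
The pair starts 13 codons before the last codon in Cd4 and 20 codons before it in Cd8a. A search of the last 40 codons found it 0 times in Cd8b1.

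The mice were CD1 wild type animals of about 3 weeks. Kidneys were taken without perfusion and were dissociated at once (fresh) or kept whole in the organ preservative HTS-FRS at 4 °C for 6 h or for up to 4 days, with dissociation on each day. Each timepoint used kidneys of 1 mouse, both up to day 2 and less kidney tissue on days 3 and 4, and single propidium iodide negative Cd45+ cells were sorted and sequenced with a protocol adapted from SmartSeq2. A number in the titles, which no label explains, was read as the pool in which a library was sequenced. By it 3 pools (A, B, C) were told apart. Pool A held 75 fresh cells, the 76 cells of 6 h and the 78 of day 2. Pool B held 81 fresh cells, the 75 cells of day 1 and the 82 of day 3. The 35 cells of day 4 lay in A (2), B (19) and C (14). Of 317 index pairs, 55.8% were used in more than 1 pool. No label says whether the fresh cells of pools A and B came from 1 mouse, so values over all fresh cells may join 2 animals. With 1 sample per timepoint as labelled, no difference between timepoints had a replicate check and no p-value was computed. SmartSeq2 reads carry no molecular identifiers, so the 95% intervals below (exact Clopper-Pearson for shares) cover counting error only. Where 0 cells held a read, the share allowed is given as 3 cells over the number of cells, with the exact upper bound beside it.

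The Cd3e cells carried the other T cell markers. A read on Trbc2 was found in 99.1% of them, on Trac in 95 cells, on Cd3d in 93, on Cd3g in 92, on Cd247 in 64 and on Trbc1 in 54. Cd3e counts left a gap at the limit, with 5 cells at 1 to 4 counts, and with 18, 21 and 25 counts in the lowest cells above it. One Cd3e cell from day 2 held reads of several lineages (83 counts on Cd3e, 2339 on the B cell gene Cd79a and 897 on C1qa). It is called the mixed cell below. Totals on genes in Cd3e cells ran from 22125 to 1400215, with a median of 708743.

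The share of Cd3e cells differed more between the pools of fresh cells than between many timepoints. It was 34% in all fresh cells, with 12% (5.64 to 21.6, 9 of 75) in pool A and 54.3% (42.9 to 65.4, 44 of 81) in pool B, and these intervals do not overlap. Pool A also gave 26.3% for 6 h (20 of 76) and 21.8% for day 2 (17 of 78). Pool B also gave 9.33% for day 1 (7 of 75) and 8.54% for day 3 (7 of 82), and 3 of the 35 day 4 cells (8.57%) were Cd3e cells. Preserved cells are therefore set beside the fresh cells of their own pool where both exist. The part of animal, pool and storage in the number of Cd3e cells cannot be told apart.

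Cd4 was read in 45 Cd3e cells (42.1%, 32.6 to 52). Its level in those cells ran from 0.943 to 3144 rpm, that is reads per 1000000 counts on genes in the cell, with a median of 509 rpm. The Cd4 counts had a low tail, with 11 cells at 1 to 17 counts and 34 cells at 28 to 2641 counts. The low tail was mostly fresh, since 9 of the 21 fresh cells with Cd4 and 2 of the 24 preserved cells with Cd4 were under 20 counts. With any read, Cd4 was found in 39.6% of the 53 fresh and 44.4% of the 54 preserved Cd3e cells. With at least 5 counts, and likewise with at least 10 rpm, it was found in 18 fresh (34%, 21.5 to 48.3) and 22 preserved cells (40.7%, 27.6 to 55). With at least 20 counts the fresh cells fell to 12 (22.6%, 12.3 to 36.2) and the preserved cells stayed at 22, and the intervals overlap at each minimum. Within pool A the numbers at 20 counts were 1 of 9 fresh and 16 of 37 preserved cells, and within pool B 11 of 44 and 4 of 14. Median totals of Cd3e cells in pool A were 708743 for fresh cells and 882628 and 932268 for 6 h and day 2. In pool B they were 531712 for fresh cells and 701101 and 492160 for day 1 and day 3. The part of depth in the fresh low tail was not tested.

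By timepoint, Cd4 was read in 21 of 53 fresh Cd3e cells and in 9 of the 20 from 6 h. On day 2 it was read in 8 of 17 cells, on days 1 and 3 in 2 and 3 of 7 cells each, and on day 4 in 2 of 3. The medians over cells with a read were 707 rpm for 6 h, 539 for day 1, 529 for day 2, 760 for day 3 and 664 for day 4, and the fresh median lay below all of these. At day 1 both cells lay at 509 and 569 rpm, and at day 4 both lay at 643 and 684 rpm. The ranges of the fresh, 6 h and day 2 cells overlapped over most of their width, from 1.41 to 3144 rpm fresh, 70.7 to 1997 rpm at 6 h and 0.943 to 3110 rpm at day 2. The order of the medians is a description of these few cells.

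Cd8a, the alpha chain, was read in 13 Cd3e cells (12.1%, 6.63 to 19.9), with a median of 797 rpm and a range of 2.43 to 2360 rpm. Cd8b1, the beta chain, was read in 14 (13.1%, 7.34 to 21), with a median of 1624 rpm and a range of 24.3 to 3368 rpm. Cd8 reads had almost no low tail, as 12 of the 13 Cd8a cells and all 14 Cd8b1 cells held at least 20 counts. The exception was the mixed cell, with 2 counts (2.43 rpm) on Cd8a and a Cd8b1 level of 272 rpm.

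The Cd8 genes were read together. Of 15 Cd3e cells with a Cd8 read, 12 held both genes, 1 held Cd8a alone (6 h, 499 counts) and 2 held Cd8b1 alone (1501 counts in a fresh cell, 605 counts in a day 1 cell). In fresh cells of pool A the levels of Cd8a and Cd8b1 were 2360 and 1134 rpm in 1 cell and 474 and 731 rpm in the other. In fresh cells of pool B with both, the pairs of Cd8a and Cd8b1 counts were 672 and 778, 624 and 1408, 805 and 1099, 571 and 438, 304 and 951, and 849 and 1562. In the fresh cells neither gene of a pair was near 0. In preserved cells they were 276 and 1564 at 6 h, 727 and 1759 at day 1, and 788 and 24 in a day 2 cell besides the mixed cell. On the scale of rpm per kb of transcript, the median level over the 12 cells was 284 for Cd8a and 1095 for Cd8b1, and Cd8b1 was the higher in 11 of 12 cells. The log2 difference per kb, Cd8b1 over Cd8a, had a median of 1.83 and ran from -3.96 in the day 2 cell to 7.88 in the mixed cell. The median of Cd4 per kb over its 45 cells was below both, at a transcript length of 3.11 kb against 3.13 kb for Cd8a and 1.48 kb for Cd8b1.

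**Figure D1:**
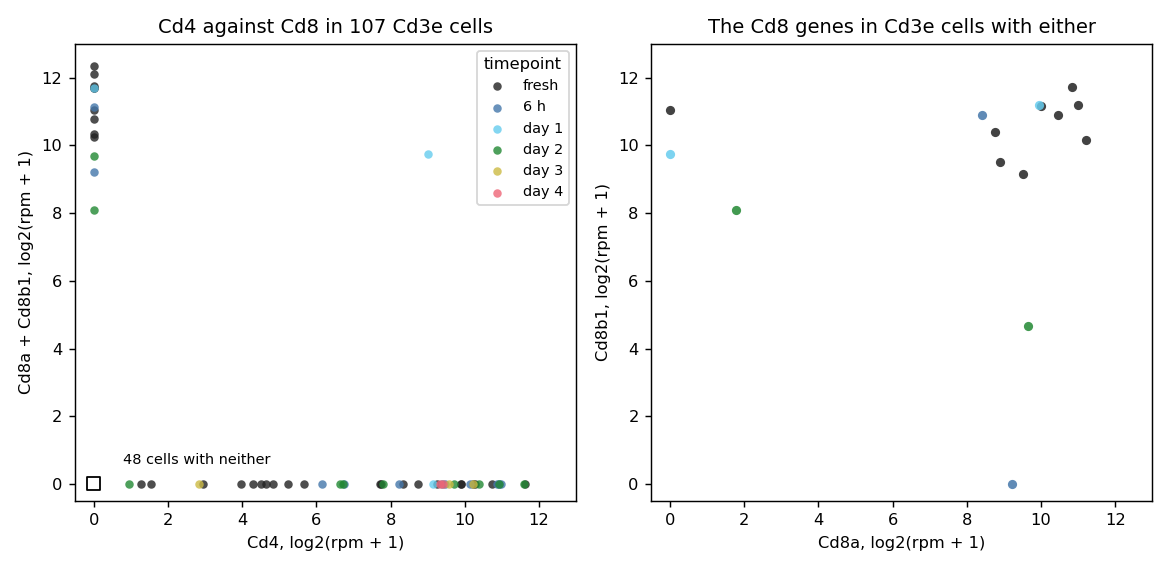
Levels of the coreceptor genes in single Cd3e cells, as log2(rpm + 1), coloured by timepoint. On the left Cd4 (x axis) is set against the summed rpm of Cd8a and Cd8b1 (y axis), the points lie on the axes apart from 1 day 1 cell, and the square marks the 48 cells with neither. On the right Cd8a (x axis) is set against Cd8b1 (y axis) in the 15 cells with a Cd8 read, 12 of which are off both axes.

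Sorted by joint detection, 44 Cd3e cells were Cd4 only (41.1%, 31.7 to 51), 14 were Cd8 only (13.1%, 7.34 to 21), 1 held both (0.935%, 0.0237 to 5.10) and 48 held neither (44.9%, 35.2 to 54.8). The product of the Cd4 share and the Cd8 share would place 6.31 cells in the class with both. The 1 cell with both, from day 1, held 357 counts on Cd4, 605 on Cd8b1 and 0 on Cd8a, with 1776 on Cd3e, 1382 on Il7r and 0 on Cd79a and C1qa. Whether it was 1 cell or a pair of cells was not tested, and doublets were not called. The median total on genes was 715130 in Cd4-only, 707411 in Cd8-only and 708517 in neither cells, and the lowest totals were 210795, 183355 and 22125.

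Cd4-only, Cd8-only and neither cells were found among fresh and among preserved cells, and the 1 cell with both was preserved. Fresh cells of pool A split into 3 Cd4 only, 2 Cd8 only and 4 neither, and those of pool B into 18, 7 and 19. The 20 cells at 6 h split into 9, 2 and 9, and the 17 cells at day 2 into 8, 2 and 7. At day 1 there were 1 Cd4-only, 1 Cd8-only, 1 double and 4 neither cells, and at day 3 there were 3 Cd4-only and 4 neither cells. Of the 3 cells at day 4, 2 were Cd4 only and 1 was neither. Cd8 reads were found in 0 of 7 cells at day 3 and 0 of 3 at day 4, which allows shares of up to 42.9% at day 3 (exact upper bound 41%) and of any size at day 4 (exact upper bound 70.8%). In total, 9 of 53 fresh (17%, 8.07 to 29.8) and 6 of 54 preserved Cd3e cells (11.1%, 4.19 to 22.6) held a Cd8 read, and these intervals overlap.

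**Figure D2:**
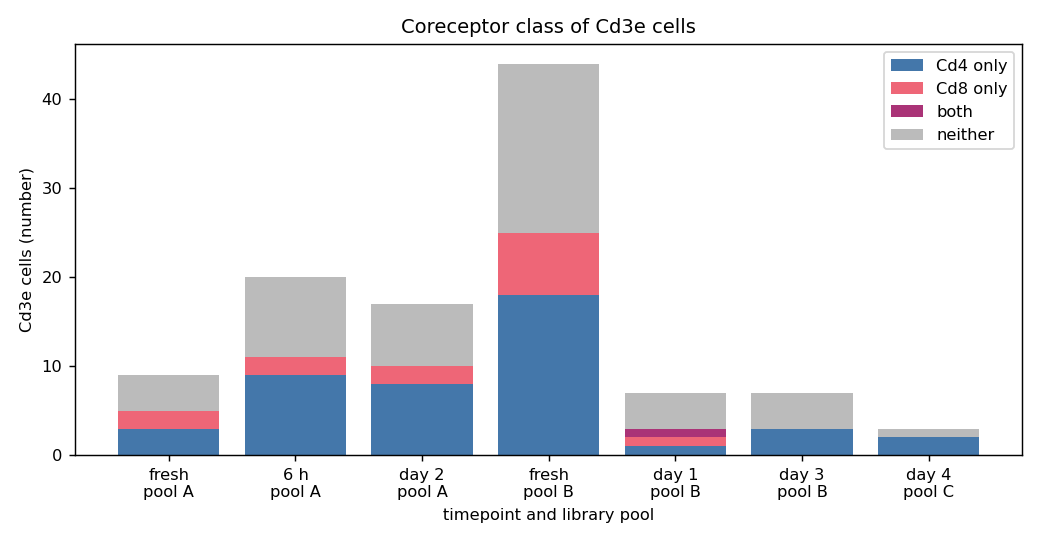
Number of Cd3e cells (y axis) by timepoint and library pool (x axis), stacked by coreceptor class. Cd4-only cells are present in each bar, from 1 of 7 cells at day 1 to 18 of 44 in fresh cells of pool B, and the single cell with both genes is in the day 1 bar.

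Summed counts of preserved Cd3e cells were compared with those of fresh Cd3e cells of the same pool, as log2((CPM + 1)/(CPM + 1)) with a call past 2-fold and with CPM as counts per 1000000 of the sum. At 6 h, where 53.8% of the 6414 genes tested were past 2-fold in either direction, Cd8a was past it (log2 -2.75) and Cd4 (-0.28) and Cd8b1 (-0.86) were not. At day 2, with 61.1% of genes past 2-fold, Cd8a (-2.44) and Cd8b1 (-3.16) were past it and Cd4 (0.14) was not. These values rest on single cells. In fresh cells of pool A, 1 cell gave 99.6% of the Cd4 counts and 1 cell gave 94.8% of the Cd8a counts. Without the fresh cell with most counts, the log2 value became 6.95 for Cd4 and 1.26 for Cd8a at 6 h and 1.57 for Cd8a and -0.64 for Cd8b1 at day 2, so no direction can be read from them.

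Fresh cells of pool B were more numerous, but the 7 cells at day 1 are few, and there the members moved less than 2-fold. With 64.1% of genes past 2-fold, Cd4 stood at -0.35, Cd8a at 0.06 and Cd8b1 at 0.74, while the median over all genes tested was -0.76. These values too rest on few cells, as 1 cell gave all Cd8a counts at day 1, Cd8b1 became 1.04 without the fresh cell with most counts, and Cd4 became -1.27 without 1 day 1 cell. At day 3, with 63.9% of genes past 2-fold, Cd4 stood at 0.62, with a median of -0.66 over all genes. The summed Cd4 counts were 1170 in the 7 cells at day 3 and 4444 in the 44 fresh cells. Cd8a and Cd8b1 had 0 counts at day 3 against 3825 and 7737 counts in the fresh cells. Since 7 of the 44 fresh cells (15.9%, 6.64 to 30.1) held Cd8b1, 0 of 7 cells at day 3 does not bound a decrease.

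Genes tied to the lineage choice were then compared between the 44 Cd4-only and the 14 Cd8-only cells, with the members themselves left out because they define the classes. Of 6003 genes tested, 46.9% were past 2-fold in summed CPM, 29.7% toward Cd4-only and 17.1% toward Cd8-only cells, so a single 2-fold value says little. The filter asks for reads over both classes together, so a gene read only in the 44 Cd4-only cells passes it more readily than one read only in the 14 Cd8-only cells, and the counts over lists below are descriptions. With cells weighted equally, as the mean of their log2(rpm + 1), the split turned, with 492 genes toward Cd4-only and 1282 toward Cd8-only cells instead of 1785 and 1028. Of the 14 lineage choice factors, 12 had enough reads, of which 3 were past 2-fold toward Cd4-only and 1 toward Cd8-only cells, with a median log2 of 0.34 against 0.20 over all genes tested.

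The factors that set the choice were thinly read. Zbtb7b, the CD4 side factor, had reads in 7 of 44 Cd4-only and 1 of 14 Cd8-only cells, and that 1 was the mixed cell, so it was read in 0 of the other 13. Its summed log2 ratio of 2.06 rested on 1 cell with 81% of the counts and was -0.36 without it. Runx3, the CD8 side factor, had reads in 6 of 44 and 3 of 14 cells, with a log2 ratio of 2.40 toward Cd4-only cells in sums and of -0.02 in the mean of log values. Its partner subunit Cbfb had reads in 7 of 44 and 7 of 14 cells, with a log2 ratio of -3.11. The ratio stayed between -3.20 and -2.59 in all alternatives tried, none of which changed the count minimum of the classes. Gata3, a factor of CD4 commitment and of helper cells, had reads in 21 of 44 and 3 of 14 cells (log2 1.78, and 0.94 in fresh cells of pool B). Myb was read in 0 of 44 and 3 of 14 cells and Patz1 in 2 of 44 and 3 of 14, both too few for the summed comparison. Tcf7, Lef1, Satb1 and Ets1, factors of T cell identity, were read in 77.3% to 92.9% of the cells of both classes, with log2 ratios between -0.10 and 0.52 (fresh cells of pool B alone gave 1.27 for Tcf7 and 1.32 for Ets1).

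The list of the receptor complex and coreceptor partners holds 14 genes, of which Cd3e was used to choose the cells. Of the other 13, all tested, 2 were past 2-fold, both toward Cd4-only cells, next to 46.9% past 2-fold either way over all genes tested. These were Cd6, an adhesion receptor (log2 2.13, reads in 25 of 44 and 5 of 14 cells), and Cd247, the zeta chain (1.20, 32 of 44 and 8 of 14). Lck, the kinase that both coreceptor tails hold, stood at 0.20, with reads in 38 of 44 and 12 of 14 cells. Trac stood at 0.10.

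Of 9 helper and regulatory genes, 8 were tested and 6 were past 2-fold toward Cd4-only cells, next to 29.7% over all genes tested. All 6 reached the filter's 10% of cells only through Cd4-only cells, with reads in at most 3 of 14 Cd8-only cells. This number therefore cannot be set against the share over all genes. Ctla4, Cd40lg and Ikzf2 also did not hold under all alternatives. Tnfrsf4 (OX40), a costimulatory receptor, had 5015 counts in 9 of 44 Cd4-only cells (20.5%, 9.80 to 35.3) and 0 counts in the 14 Cd8-only cells (exact upper bound 23.2%), so the shares were not distinguishable at this number of cells. Izumo1r (folate receptor 4), a marker of regulatory and resting helper cells, had a log2 ratio of 3.77 with reads in 18 of 44 and 3 of 14 cells. Ctla4, the inhibitory receptor, stood at 1.89 (14 of 44 and 2 of 14 cells) but at -2.49 in fresh cells of pool B. Foxp3, the regulatory T cell factor, had reads in 6 of 44 Cd4-only cells, 1 of which gave 87.3% of the counts, and 2 counts in the mixed cell. Cd40lg (1.08) and Ikzf2 (1.04) fell under 2-fold without the cell with most counts, at 0.65 and 0.49, and by the mean of log values, at 0.91 and 0.15. They also did with a pseudocount of 10 (0.94 and 0.95), and Ikzf2 did with size factors (0.99) and in fresh cells of pool B (0.56). Cd69, an activation marker, stood at 0.09 with reads in 24 of 44 and 8 of 14 cells.

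Of 12 cytotoxic genes, 3 were tested and 2 of these were past 2-fold toward Cd8-only cells, next to 17.1% over all genes tested. One of these, Nkg7, reached the filter's 10% of cells only through Cd8-only cells, so this number cannot be set against that share. Nkg7, a granule protein gene, had reads in 12 of 14 Cd8-only, 4 of 44 Cd4-only and 16 of 48 neither cells, and its log2 ratio was -4.06. Ctsw, a protease gene of cytotoxic cells, had reads in 10 of 14, 11 of 44 and 18 of 48 cells, with a log2 ratio of -3.35. The third gene tested, the chemokine Ccl5, stood at 0.00 with reads in 3 cells of each class, but at -2.51 without the cell with most counts. The other 9 of the 12 listed genes had too few reads for the summed comparison. Among them the effector genes were rare, with Gzma in 2, Gzmb in 2, Gzmk in 1 and Prf1 in 3 of 14 Cd8-only cells, and in 1, 1, 1 and 0 of 44 Cd4-only cells. The receptor gene Klrd1 was read in 5 of 14 and 0 of 44 cells. Without the mixed cell Nkg7 was read in 11 of 13, Klrd1 in 5, Prf1 in 2 and Gzma in 1 of 13 Cd8-only cells.

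Genes of naive and recirculating T cells were compared next. Of 7 genes tested, S1pr1, the egress receptor (1.24), and Il7r, the interleukin 7 receptor (1.26), were past 2-fold toward Cd4-only cells, a share near the 29.7% over all genes tested. S1pr1 fell under it in fresh cells of pool B (0.94), and Il7r did by the mean of log values (0.74) and was read in 23 of 44 and 8 of 14 cells. Actn1 stood past 2-fold (-1.40) toward Cd8-only cells but at 0.08 without 1 cell. Ccr7, the lymph node homing receptor, was read in 38 of 44, 8 of 14 and 28 of 48. Ccr9, a gut homing receptor, was read in 0 of 44, 4 of 14 and 2 of 48 and was too rare for the summed comparison. The list median was 0.46, against 0.20 over all genes tested.

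**Figure D3:**
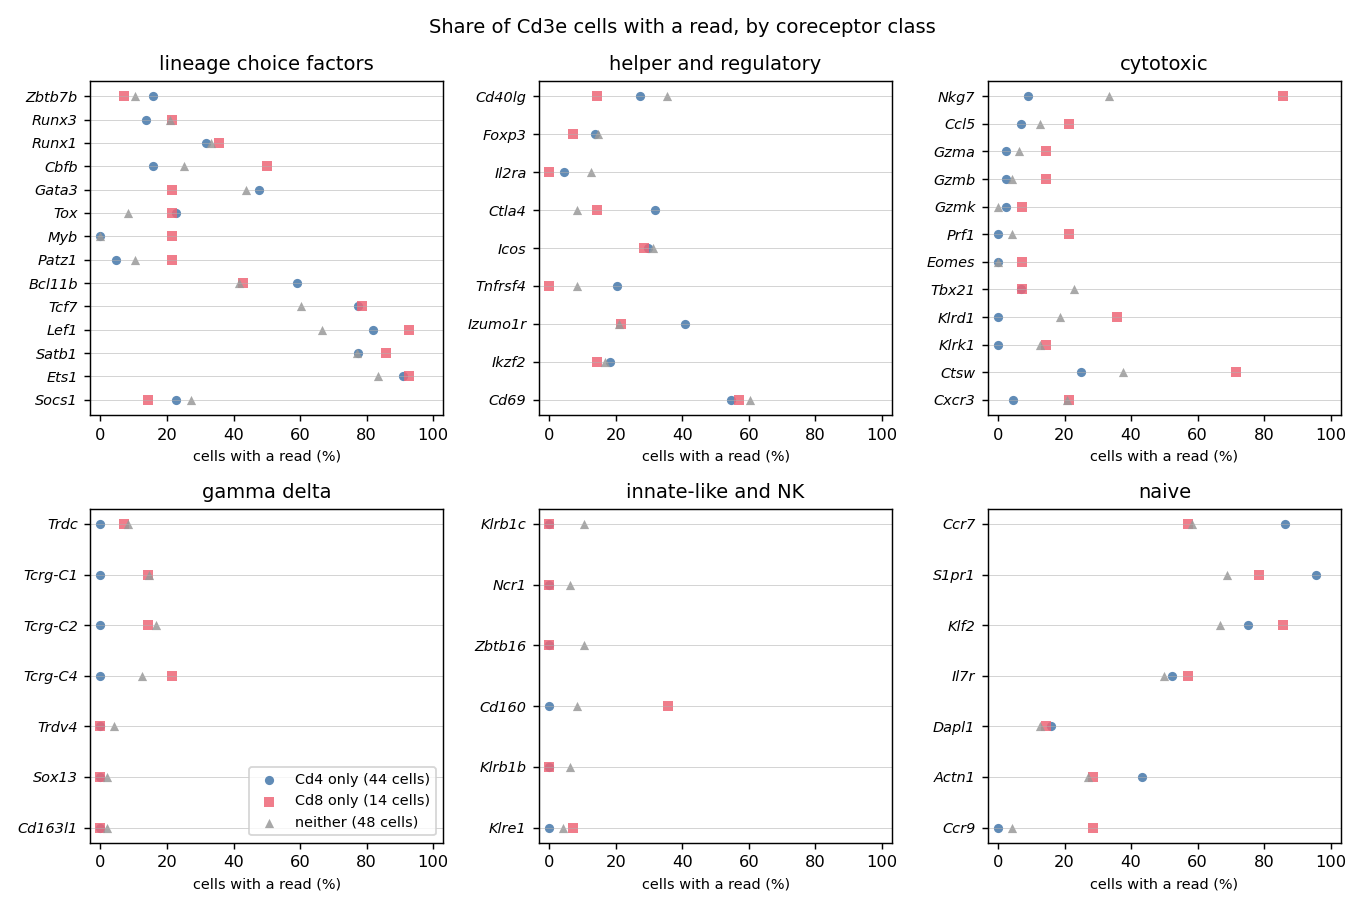
Share of cells with a read (x axis, percent) for the reported genes of 6 lists (y axis) in Cd4-only (44), Cd8-only (14) and neither (48) Cd3e cells. Nkg7 stands out in the cytotoxic list at 85.7% of Cd8-only and 9.09% of Cd4-only cells, while the gamma delta genes are at 0 in Cd4-only cells.

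The largest differences in share of cells were taken over all tested genes. Toward Cd4-only cells they were Trib2, a pseudokinase gene (32 of 44 and 3 of 14 cells), Lrch4 (20 and 1), Syf2 (29 and 4), the beta 2 integrin gene Itgb2 (32 and 5) and Pla2g16 (18 and 1). Toward Cd8-only cells they were Nkg7, the splicing gene Tra2a (12 of 14 and 13 of 44), Shmt2, a mitochondrial enzyme of serine and glycine metabolism (9 and 4), Hypk (12 and 15) and Eif3a (11 and 12). Trib2 was read in 2 of the 13 Cd8-only cells besides the mixed cell, with 3 counts in all. These genes were chosen by their difference, so the values are a description.

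The genes closest to each member over all Cd3e cells were found by Pearson correlation of log2(rpm + 1) among 6393 genes read in at least 10% of these cells. The cells share libraries and depth, so the values describe these cells only. Cd8a and Cd8b1 were each other's closest gene (r = 0.84), followed for both by Gpatch4 (0.53 with Cd8a, 0.44 with Cd8b1) and Shmt2 (0.46 and 0.45). Next to Cd8a came Hypk (0.42) and Gm6382 (0.39), and next to Cd8b1 came Glipr2 and Rcor1 (both 0.43). Cd4 was closest to Trib2 (0.50), then Gm12396 (0.44), Fam65b (0.35), Gm12421 and Ccr7 (both 0.32). Cd4 stood at -0.27 with Cd8a, -0.24 with Cd8b1, 0.07 with Cd3e and -0.04 with Zbtb7b.

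The 48 Cd3e cells with reads of neither coreceptor gene were mostly cells with alpha beta receptor reads. With at least 5 counts, Trac was found in 38 of 48 (79.2%, 65 to 89.5) against 41 of 44 Cd4-only and 13 of 14 Cd8-only cells, and Trbc1 or Trbc2 in 47 of 48. Gamma delta T cells, which often lack both coreceptors, have the constant chains Trdc and Tcrg-C1, Tcrg-C2 and Tcrg-C4. At least 1 of these genes had 5 counts or more in 12 of 48 neither cells (25%, 13.6 to 39.6), in 4 of 14 Cd8-only cells (28.6%, 8.39 to 58.1) and in 0 of 44 Cd4-only cells, which allows up to 6.82% (exact upper bound 8.04%). Without the mixed cell it was 3 of 13 Cd8-only cells (23.1%, 5.04 to 53.8). Trdc itself reached 5 counts in 4, 1 and 0 of these cells. The natural killer receptor genes Ncr1 or Klrb1c reached 5 counts in 4 of 48 neither cells and in 0 of the 58 other cells of a single class. Cd40lg was found in 16 of 48 neither cells and Foxp3 in 6 of 48, next to 11 and 6 of 44 Cd4-only cells. The 7 genes of the gamma delta list and the 6 of the innate-like list had too few reads for the summed comparison.

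In the 395 other cells, Cd4 was read in 27 (6.84%, 4.55 to 9.79), Cd8a in 3 (0.759%, 0.157 to 2.20) and Cd8b1 in 0, which allows a share of up to 0.759% (exact upper bound 0.93%). Cells that should lack the genes gave the background. The 76 cells with Cd79a and Cd79b (B cells) held 0 reads on all 3 genes at a median total of 724591, which allows a share of up to 3.95% (exact upper bound 4.74%), and so did the 40 cells with Csf3r and S100a8 (neutrophils), up to 7.50% (exact upper bound 8.81%). Reads of free RNA on these genes were thus not detected in either group.

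Cells with at least 2 of C1qa, C1qb and C1qc at 5 counts, a mark of tissue macrophages, held 22 of the 27 cells with Cd4 outside the Cd3e cells. Cd3e cells were set aside before this group was formed, so a low Cd3e count in it follows from the rule, and a macrophage joined with a T cell could not enter it. These 22 were 17.3% (11.2 to 25) of the C1q cells, with a median of 422 rpm and a range of 10.7 to 3228 rpm. Cd8a and Cd8b1 were read in 0 of the C1q cells, which allows a share of up to 2.36% (exact upper bound 2.86%). The Cd4 levels overlapped those of Cd3e cells over nearly the whole range (median of 509 rpm). Of the 22 cells, 0 held a read on Cd3d, Cd3g, Trac, Trbc1, Trbc2 or Lck, which follows in part from that rule. In the C1q cells without Cd4, 2 held a read on Cd3g, 1 each on Cd3d, Trac, Trbc1 and Lck, and 0 on Trbc2. All 22 held reads on Csf1r, the macrophage growth factor receptor. Median C1qa was 2490 rpm with Cd4 and 2556 rpm without, and median Csf1r was 3361 and 2956 rpm. Median totals were 759023 and 611211, and after thinning each cell to 100000 counts Cd4 was read in 17.6% of the cells deep enough to be thinned.

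By timepoint, the C1q cells with Cd4 were 2 of 16 fresh cells and 2 of 5 cells from 6 h. They were 3 of 22 on day 1 and 4 of 15 on day 2, and then 5 of 56 on day 3 and 6 of 13 on day 4. The fresh cells held 295 and 298 rpm, both in pool A, where 2 of 8 C1q cells had Cd4 against 0 of 8 in pool B. The 6 h cells held 478 and 3228 rpm, and the day 1 cells 42.4, 474 and 1448 rpm. The day 2 cells lay between 369 and 1135 rpm. The day 3 cells ran from 27.8 to 1498 rpm and the day 4 cells from 10.7 to 1979 rpm, and 5 of the 6 day 4 cells were in pool B. The share at day 3 (8.93%, 2.96 to 19.6) and that at day 4 (46.2%, 19.2 to 74.9) had intervals that barely overlap, with 1 sample each.

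**Figure D4:**
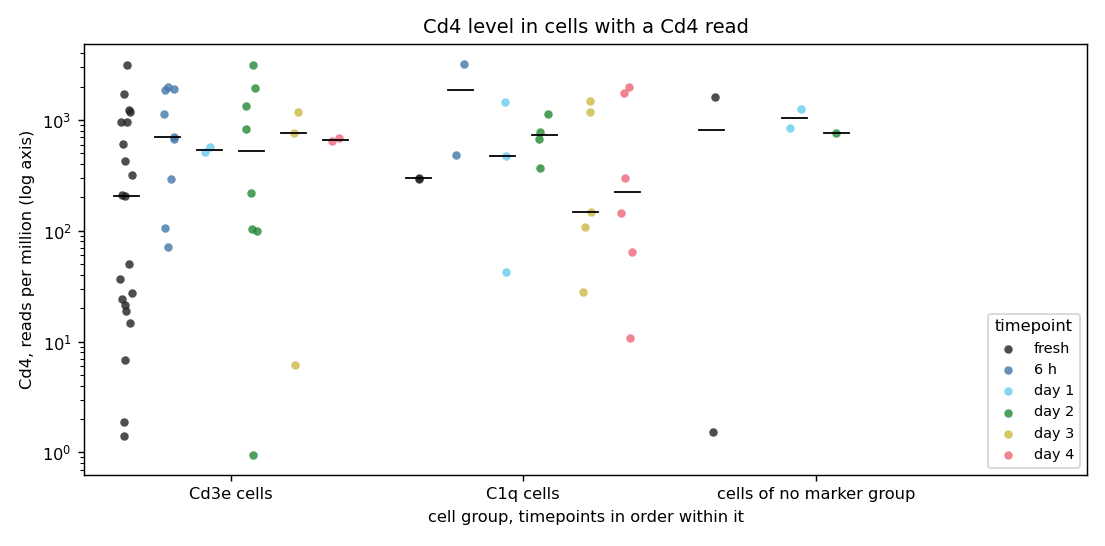
Cd4 level in each cell with a Cd4 read (y axis, rpm, log scale) in Cd3e cells, C1q cells and cells of no marker group (x axis), by timepoint within each, with bars at the medians. The C1q cells reach 3228 rpm, next to 3144 rpm in Cd3e cells, and most points under 50 rpm are fresh Cd3e cells.

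The remaining cells fell into no marker group and held Cd4 in 5 cells (3.29%) and Cd8a in 3 (1.97%), 1 of which held both. A fresh cell of pool B was a T cell under the Cd3e limit, with 2 counts on Cd3e (4.09 rpm) and 911 rpm on Cd3d, 1967 rpm on Trac and 1623 rpm on Cd4. A day 1 cell with 628 counts on Cd4 held 2355 on Siglech, 1465 on Ly6d and 403 on Tcf4, genes of plasmacytoid dendritic cells. Another day 1 cell with 846 rpm on Cd4 held 3872 rpm on Il7r and 550 rpm on Il23r, cytokine receptor genes of T cells and innate lymphoid cells. A day 2 cell with 646 counts on Cd4 and 26 on Cd8a held 342 on Lck. A fresh cell with 1 count on Cd4 held 658 on Csf1r. These cells were singled out after their values were seen.

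Of the Cd8a cells outside the Cd3e cells, a fresh cell of pool A with 58 counts held 879 on Xcr1, 100 on Clec9a, 2152 on Naaa and 1304 on Irf8, genes of type 1 dendritic cells. A day 2 cell with 1012 counts on Cd8a, or 3119 rpm, held 553 on Csf1r and 0 on Xcr1, Cd3d, Trac and Lck, and had 635 genes with a read. All 3 Cd8a cells had 0 counts on Cd8b1, while 12 of the 13 Cd3e cells with Cd8a held Cd8b1 reads as well.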

How the data were processed

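Single Cd45+ cells underwent SmartSeq2-type sequencing. STAR (alignment to GRCm38) and HTSeq (counting per gene without regard to strand) were run by the authors, who deposited raw counts, 1 column per cell, for 502 cells. The sources used here give no version for STAR or HTSeq. Of 46700 rows, 96 ERCC rows (0.000185% of counts) and 1 vector row (0.139%) carry no gene name and were dropped. Totals per cell ran from 1759 to 1895431 (median 695188).

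Cells were grouped by timepoint from the labels and by the number in the titles, called the pool here. A member was called present with at least 1 count. Sums were compared as log2((CPM + 1)/(CPM + 1)) over genes whose pooled sums reached 100 counts and that had a read in at least 10% of the cells, with a call past 2-fold. The ratio script was tested on simulated data. Cells are not replicates, so no significance test was made. Alternatives covered the count minimum, in shares and classes only, and thinning to 100000 counts, which leaves out 1 Cd3e cell. They also covered TMM of edgeR 4.0.16, size factors of DESeq2 1.42.0, the filter, the pseudocount and the cells used. Other values came from Python 3.11.15 with pandas 2.3.3 and scipy 1.17.1. Sequences and positions came from GENCODE vM21.

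A listed gene and a marker gene are not reported here. Genes named are the members, Ptprc, the marker genes and the 7 lists of lineage, receptor, helper, cytotoxic, gamma delta, innate-like and naive genes. The 5 genes closest to each member and the 5 with the largest difference in share of cells in each direction are also named. The members and lists were chosen with earlier results of these data known. Leaving out a single cell, and leaving out the mixed cell in the ratios of Cd4-only to Cd8-only cells, were added after seeing the data.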

Additional observations from a re-analysis of the deposited data

Results flagged for a closer look

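In groups of 4 to 10 Cd3e cells of 1 timepoint and pool, the highest or lowest log2(rpm + 1) of a member was compared with the range of its group, over 7 combinations of group and gene. Chance singles out about 1 in 20 groups, and cells with and without a read are expected to lie far apart on this scale. Cd4 in the 9 fresh Cd3e cells of pool A had 1 cell at 11.6, with the next at 4.49, and this is the cell that gave 99.6% of the group's Cd4 counts. Cd8a in the 7 day 1 Cd3e cells of pool B had 1 cell at 9.93 and the others at 0.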

How the results depend on the processing

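With at least 20 counts in place of 1, Cd4 was found in 31.8% of Cd3e cells and 22.6% of fresh ones, Cd4-only cells made up 30.8% and neither cells 55.1%. The other shares of members, classes and Cd3e cells kept within their counting interval under every alternative run. The count of 2813 genes past 2-fold between Cd4-only and Cd8-only cells became 6795 with no filter and 1774 by the mean of log values, where 27.7% instead of 63.5% of these lay toward Cd4-only cells. Among named genes past 2-fold under at least 1 of the settings compared, the direction turned for Actn1 (3.07 in fresh cells of pool B, 0.24 by the mean of log values, 0.078 without 1 cell), for Ctla4 (-2.49), Eif3a (3.14) and Ets1 (1.32) in fresh cells of pool B, for Runx3 (-0.019) by the mean of log values and for Zbtb7b (-0.36) without 1 cell. Values under 2-fold in both settings changed sign as well, among them Eif3a (0.70), Ets1 (0.80), Dapl1 (-0.61), Cd69 (-0.17) and Runx1 (-0.17) without 1 cell, Icos (-0.84) and Klf2 (0.53) in fresh cells of pool B, and Runx1 (-0.69), Socs1 (0.26) and Ets1 (0.28) by the mean of log values. Preserved against fresh values turned or crossed 2-fold without the fresh cell with most counts, to 6.95 for Cd4, 1.26 for Cd8a and 1.66 for Cd8b1 at 6 h, to 7.37 for Cd4, 1.57 for Cd8a and -0.64 for Cd8b1 at day 2, and to 1.04 for Cd8b1 at day 1, and Cd4 at day 1 became -1.27 without 1 preserved cell. These single-cell alternatives were chosen after seeing the data. By Spearman correlation, 3 of the 5 genes closest to Cd4 and 3 of those closest to Cd8a were shared with the reported ones. Normalization by TMM or size factors and the pseudocount changed no call of a member. No paired analysis was possible because each timepoint is 1 sample and cell numbers pair nothing. The limits are the 14 Cd8-only cells, 3 to 7 Cd3e cells at days 1, 3 and 4, and the pools, which share timepoints only in the fresh and day 4 cells.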
